A study of Mus with 3 samples.

Results

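Naive and memory T cells are kept in a resting, recirculating state by a small set of regulators, and 10 of these genes, of 32285 in the count table, were followed in T cells from MC38 tumors. They are a list of named genes, chosen with earlier results of these data known. The transcription factors are Tcf7, which encodes TCF1, its relative Lef1, Bach2, Id3, the Krüppel-like factors Klf2 and Klf3, and the chromatin organizer Satb1. S1pr1 and Ccr7 are trafficking receptors, and Il7r is the receptor chain for a survival cytokine. All 10 had UMIs (unique molecular identifiers, counts of RNA molecules) in CD8 and CD4 T cells, although Id3 was so low that it passed the expression filter in 3 of 15 comparisons.

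In general, TCF1 and LEF1 hold T cells in a naive or stem-like memory state, and BACH2 limits effector differentiation. KLF2 drives transcription of S1pr1, which lets T cells leave lymphoid tissue, and CCR7 guides T cells into lymph nodes. Naive T cells express most of these genes, and effector cytotoxic T cells lose many of them after activation.

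The data come from 1 pooled library, made with a 10x Genomics 5′ kit that also reads T cell receptors (TCRs), on day 16 from MC38 tumors. MC38 is a mouse colon cancer line. Each genotype gave 30000 sorted T cells (CD45.2+ CD3+) and 10000 cells of the whole tumor, marked with an antibody hashtag. WT mice carried hashtag C0301. RARα-KO mice carried C0302, and in them a Cre driven by the distal Lck promoter, which acts in mature T cells, deletes an inner exon of Rara, the gene of a retinoic acid receptor. RARα-TG mice carried C0303 and express Rara from the CD2 promoter in lymphocytes. The labels also name spleen and activated naive CD8 T cells, which conflicts with the tumor protocol in the same labels; the protocol was followed. The labels name C57BL/6 for the pooled library, and the study's methods name C57BL/6 and dLck-Cre as WT strains. The methods give young, age-matched mice of both sexes for most experiments, but also state that later work mostly used males. How many mice gave tumors, their own ages and sex and which of the WT strains was used are not given in the sources used here. Since 1 sample stands for a genotype, no comparison has a test, and RARα-KO and RARα-TG are set against the same WT sample. Intervals below are 95% intervals for counting error alone, and they cover no difference between mice or tumors.

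The 5585 cells had a median of 4823 UMIs. Cytotoxic T lymphocytes (CTLs; Cd8a without Cd4) numbered 843 (WT), 1184 (RARα-KO) and 113 (RARα-TG), with 5615447, 8135982 and 602657 UMIs, so RARα-TG values are the least precise. CD4 T cells numbered 217, 246 and 262, and all 5 T cell markers (Cd3d, Cd3e, Cd3g, Trac and Trbc2) were present in each group. Of 3962 T cells (1452, 1724 and 786 by genotype), 1097 were in neither group and entered no comparison. These made up the largest share in RARα-TG, where they outnumbered the CTLs and CD4 T cells together. In WT and RARα-KO they did not. With Cd8b1 also in the gate, CTLs numbered 931, 1294 and 166. Foxp3, the mark of regulatory T cells, had a UMI in 55.3% of the WT CD4 T cells, 32.1% for RARα-KO and 57.3% for RARα-TG. WT T cells had 87.3 CPM of Rara (counts of its UMIs scaled to a common total of 1e6 UMIs), RARα-KO T cells 80.3 CPM and RARα-TG T cells 249 CPM. The RARα-KO value does not check that label, since a transcript without the deleted exon can still be counted. The WT hashtag was the weakest, with a median of 80.8% of the hashtag UMIs of WT cells, against 94.7% in RARα-KO and 89.3% in RARα-TG. Of 1737 T cells in 105 clonotypes of 5 or more cells, 3 carried another hashtag than most of their clonotype.

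The first question was whether the regulators differ between genotypes in CTLs. A gene was called when its CPM differed 2-fold or more, its counting interval left out equality and it reached 0.1 UMIs per cell in at least 1 group. In RARα-TG CTLs Tcf7, Klf3 and S1pr1 were called higher than in WT and Ccr7 lower. Over all 6602 genes that passed the filter, 4.63% were called higher and 5% lower. In RARα-KO CTLs Ccr7 was the 1 member called, lower than in WT, where 1.29% of 6592 genes were called higher and 1.35% lower. The median log2 ratio of the members was 0.64 for RARα-TG and -0.08 for RARα-KO, beside 0.01 and 0.02 for all genes tested. CTLs of the genotypes lay in different clusters. The cluster led by Gzmf held 39.5% of WT CTLs, the cluster led by Serpine2, Prf1 and Ccl5 held 40.5% of RARα-KO CTLs, and the cluster led by Tcf7 and S1pr1 held 61.1% of RARα-TG CTLs. Since members define that last cluster, its share is no separate result.

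**Figure D1:**
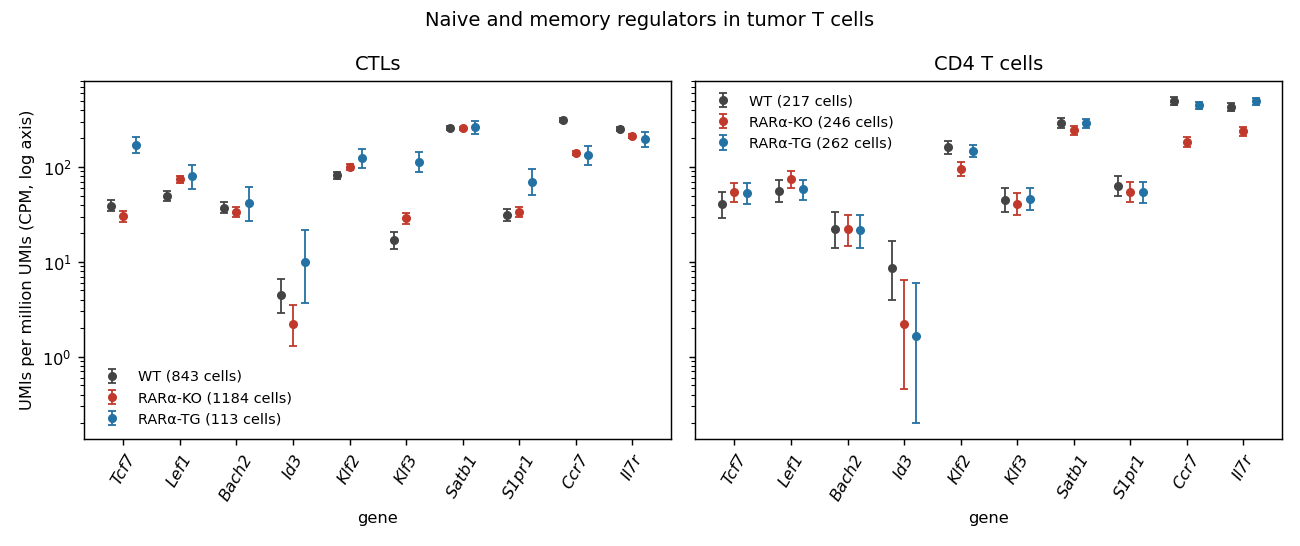
Level of each gene (CPM, log axis) in CTLs (left) and CD4 T cells (right) of WT, RARα-KO and RARα-TG, with exact Poisson 95% intervals for counting error. Tcf7 and Klf3 of RARα-TG stand above WT in CTLs and beside it in CD4 T cells, and Ccr7 of RARα-KO lies under WT in both.

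Tcf7 (ENSMUSG00000000782, chromosome 11, 52246527 to 52283383, mouse GRCm38) had 39.2 CPM (34.2 to 44.7) in WT CTLs. RARα-KO had 30.1 CPM (26.5 to 34.1) and RARα-TG 171 CPM (139.5 to 207). The RARα-TG level lay far above both others, and WT and RARα-KO lay close together. Against WT the log2 ratio of Tcf7 was 2.13 (1.77 to 2.47) for RARα-TG and -0.38 (-0.65 to -0.11) for RARα-KO. The share of CTLs with a Tcf7 UMI was 14.0% (WT), 11.7% (RARα-KO) and 45.1% (RARα-TG), at median depths of 5667, 5574 and 4680 UMIs. In the myeloid cluster led by Lyz2 the share was 1.66% at a median of 6630 UMIs. After each cell was thinned to 1000 UMIs, the RARα-TG ratio of Tcf7 was 1.64, and with each clonotype given equal weight it was 0.46, which ends the call.

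Klf3 (ENSMUSG00000029178, chromosome 5, 64803521 to 64832901), which encodes a transcriptional repressor, was again highest in RARα-TG. Its level was 16.9 CPM for WT CTLs, 28.6 CPM for RARα-KO and 113 CPM for RARα-TG, with log2 ratios to WT of 0.76 (0.41 to 1.12) and 2.74 (2.27 to 3.20). MC38 or stromal cells also express Klf3 (163 CPM), and the summed level of 6 MC38 or stromal markers in CTLs was 3.21, 8.36 and 29.9 CPM in that order, against 3402 CPM in MC38 or stromal cells themselves. Krt8, Krt18 and Col1a1 had no UMI in WT and RARα-TG CTLs, and Krt8 had none in RARα-KO CTLs. S1pr1 (ENSMUSG00000045092, chromosome 3, 115710433 to 115715055) was at 31.2, 33.4 and 69.7 CPM. Its ratio for RARα-TG was 1.16 (0.64 to 1.65), but 0.89 with Cd8b1 in the CTL gate, -0.18 (-1.87 to 1.15) after thinning to 1000 UMIs and 0.35 without the Gzmf cluster.

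Ccr7 (ENSMUSG00000037944, chromosome 11, 99144199 to 99155077) went against this pattern. WT CTLs had 313 CPM (299 to 328), RARα-KO CTLs 140.5 CPM (132 to 149) and RARα-TG CTLs 133 CPM (105 to 165), so WT lay above both other genotypes, whose intervals overlapped. The log2 ratios to WT were -1.16 (-1.27 to -1.05) and -1.24 (-1.58 to -0.92). Cells with a Ccr7 UMI made up 30.1%, 18.2% and 16.8% of CTLs in the same order, and 3.32% of the Lyz2 myeloid cluster. The RARα-TG ratio lost its call, at -0.73, when Cd8b1 was added to the CTL gate and, at -0.99, without cycling cells. Ccr7 is unevenly spread: cells with it had 6.33 UMIs on average, and 1% of T cells (39 of 3962) held 26.0% of its UMIs, against 6.34% for Il7r. A counting interval takes UMIs as independent and is too narrow for such a gene.

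Lef1 and Klf2 stood above WT in both genotypes without reaching 2-fold, and neither direction held under every alternative. Lef1 (ENSMUSG00000027985, chromosome 3, 131110297 to 131224357) had 49.9 CPM (WT), 73.9 CPM (RARα-KO) and 79.6 CPM (RARα-TG), with ratios of 0.57 (0.36 to 0.78) and 0.68 (0.20 to 1.12), or -0.18 and 0.098 for Lef1 with each clonotype given equal weight. Klf2 (ENSMUSG00000055148, chromosome 8, 72319062 to 72321654) stood at 81.4, 99.6 and 124 CPM, with ratios of 0.29 (0.12 to 0.46) and 0.61 (0.24 to 0.97). The Klf2 ratios were -0.25 and -0.22 when T cells were defined by their TCR alone. That setting also takes in cells with a TCR that lie outside the T cell clusters. MC38 or stromal cells have 1562 CPM of Klf2, and the myeloid clusters led by Lyz2 and by S100a9 have 248 and 983 CPM. The summed level of 6 myeloid markers in CTLs was 16.4, 24.1 and 16.6 CPM, against 6839 and 8721 CPM in these clusters, and S100a8 had no UMI in CTLs. The part of other cells' RNA in these small differences was not tested.

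The remaining members differed little, given here for WT, RARα-KO and RARα-TG in turn. Satb1 (ENSMUSG00000023927, chromosome 17, 51736187 to 51833290) stood between 255 and 260.5 CPM in all 3 genotypes. Il7r (ENSMUSG00000003882, chromosome 15, 9506159 to 9529941) had 252, 210.4 and 197 CPM, with ratios of -0.26 (-0.36 to -0.16) and -0.35 (-0.63 to -0.08). Bach2 (ENSMUSG00000040270, chromosome 4, 32238413 to 32586109) ranged from 33.8 to 41.5 CPM, and both ratio intervals held 0. Id3 (ENSMUSG00000007872, chromosome 4, 136143822 to 136145392) had 25, 18 and 6 UMIs and was below the filter.

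Other genes of the pathway were counted from a list of 20. In RARα-TG CTLs 16 passed the filter, 5 were called higher than WT and none lower, and the median log2 ratio over all 20 was 0.67. Rflnb (2.88) and Nsg2 (1.64) were among those furthest from WT. In RARα-KO CTLs 11 passed and none was called, and the median over all 20 was -0.14. Of 10 regulators of effector T cells, 9 passed for RARα-TG and 6 were called lower, Bhlhe40 (-1.76), Id2 (-1.64) and Rbpj (-1.49) being furthest. All 10 passed for RARα-KO and 2 were called higher, Prdm1 (1.90), which encodes the repressor BLIMP1, and Irf4 (1.03).

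The second question was how the regulators vary with clonal expansion. Cells that share a TCR form a clonotype, whose size was counted within a genotype. WT had 122 CTLs in clonotypes of 1 cell, 201 in clonotypes of 2 to 9 and 467 in 19 clonotypes of 10 or more. RARα-KO had 94, 198 and 683, the last in 24 clonotypes. RARα-TG had 81 and 13 CTLs in the smaller classes and none in the largest; with 113 CTLs, fewer large clonotypes can be seen. The 13 RARα-TG CTLs in clonotypes of 2 to 9 had 305 CPM of Tcf7 (178 to 489) and 162 CPM of Klf3 (73.9 to 307).

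In WT, Tcf7, Klf3, Klf2, S1pr1, Lef1, Bach2 and Id3 were called lower in clonotypes of 10 or more than in clonotypes of 1, where 3.2% of 6593 genes were called lower and 3.76% higher. Tcf7 went from 164 CPM (135 to 198) in clonotypes of 1 through 23.9 CPM in clonotypes of 2 to 9 to 19.9 CPM (15.3 to 25.4) in those of 10 or more, a log2 ratio of -3.04 (-3.51 to -2.59) between the outer classes. The step lay between clonotypes of 1 and of 2 to 9, and the larger classes overlapped. The cluster led by Tcf7 and S1pr1 held 52.5% of WT CTLs in clonotypes of 1, 3.48% in clonotypes of 2 to 9 and 1.499% in those of 10 or more, while the Gzmf cluster held 13.1%, 47.3% and 44.5%, so the classes compare cells of different clusters. Klf3 went from 93.5 CPM through 6.14 CPM to 4.36 CPM (-4.42, -5.38 to -3.57). Id3 had 18 UMIs in 122 cells and 2 UMIs in 467 cells (-5.45, -8.60 to -3.38), but 12 of the 18 UMIs were in 1 cell. Id3 and Klf3 passed the filter only through clonotypes of 1, where they were high. Klf2 (-2.18), S1pr1 (-2.01), Lef1 (-1.91) and Bach2 (-1.38) were also called. Ccr7 (-0.98, -1.16 to -0.79) and Satb1 (-0.66) were lower without a call, and Il7r was level at 234 and 236.5 CPM (0.02, -0.23 to 0.28). Median depth was 4250.5 UMIs in clonotypes of 1 and 6017 UMIs in clonotypes of 10 or more.

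In RARα-KO the same contrast gave 2 calls, Tcf7 and Klf3, where 2.75% of 6555 genes were called lower and 1.5% higher. Tcf7 went from 116 CPM (88.5 to 149) through 31.2 CPM to 23.0 CPM (18.8 to 27.9), a ratio of -2.33 (-2.80 to -1.85). Klf3 went from 75.8 CPM through 24.1 CPM to 26.1 CPM (-1.54, -2.07 to -0.98). The other 7 members that passed the filter had ratios from -0.77 (S1pr1) to -0.01 (Satb1). The median over the members was -1.96 in WT and -0.68 in RARα-KO, beside 0.05 and -0.06 for all genes tested. The difference between these medians was not tested, as each genotype is 1 sample. Of the 20 other naive and memory genes, 9 of 17 that passed were called lower in WT and 3 of 14 in RARα-KO.

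**Figure D2:**
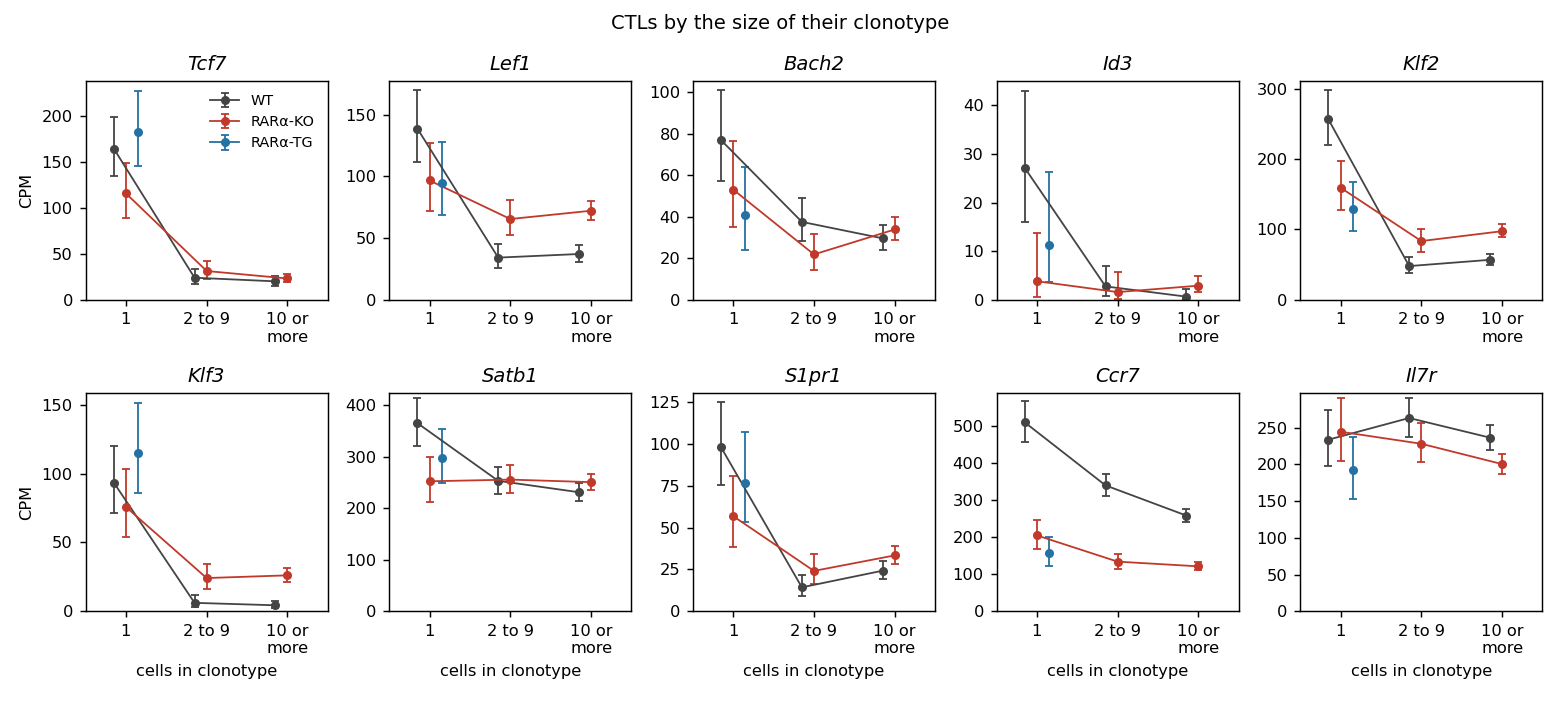
CPM of each gene in CTLs (vertical axes from 0) by the number of cells in the clonotype, for WT, RARα-KO and RARα-TG, with Poisson 95% intervals; the 13 RARα-TG CTLs in clonotypes of 2 to 9 are not drawn. Tcf7 and Klf3 of WT and RARα-KO are highest in clonotypes of 1, where RARα-TG stands beside WT, and Ccr7 of WT is above RARα-KO in every class.

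The genotypes were then compared within clonotype classes. Among CTLs in clonotypes of 1, Tcf7 levels were 164 CPM (WT), 116 CPM (RARα-KO) and 183 CPM (RARα-TG), and the RARα-TG ratio to WT was 0.15 (-0.28 to 0.58). Klf3 stood at 93.5, 75.8 and 115 CPM, with a RARα-TG ratio of 0.30 (-0.26 to 0.86). S1pr1 stood at 98.0, 56.9 and 76.7 CPM, with a RARα-TG ratio of -0.35 (-0.996 to 0.27). Thus the 3 genes called higher over all RARα-TG CTLs were not detectably different from WT in this class. The upper bound of each lay below its ratio over all CTLs. With each clonotype given equal weight, the ratios over all CTLs were 0.46 for Tcf7, 0.71 for Klf3 and -0.27 for S1pr1. Klf2 was lower in RARα-TG, at 129 CPM against 256 CPM in WT (-0.99, -1.45 to -0.55), and Lef1 and Bach2 had ratios of -0.55 and -0.92. The median of the members was -0.45, where it had been 0.64 over all CTLs. Of the 20 other naive and memory genes, 17 passed for RARα-TG, 4 were called lower and none higher. The median over all 20 was -0.33, where it had been 0.67 over all CTLs. Of the 10 effector regulators, 9 passed, 4 were called lower and none higher, with a median of -0.61. Over all 6197 genes 3.37% were called higher and 3.52% lower. In this class the cluster led by Tcf7 and S1pr1 held 52.5%, 19.1% and 63.0% of the CTLs (WT, RARα-KO, RARα-TG). In clonotypes of 2 to 9, Tcf7 had a UMI in 10 of 13 RARα-TG CTLs and 17 of 201 WT CTLs. Klf3 had a UMI there in 6 and 9 cells, and S1pr1 in 4 and 15. Thus all 3 genes were found in a larger share of RARα-TG cells in clonotypes of 2 to 9, though these are only 13 cells.

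Ccr7 kept its direction in clonotypes of 1. Levels were 509.7 CPM for WT (457 to 567), 205 CPM for RARα-KO (168 to 247) and 158 CPM for RARα-TG (123 to 199.6), with ratios of -1.32 (-1.64 to -0.999) and -1.69 (-2.08 to -1.31). Cells with a Ccr7 UMI made up 52.5%, 27.7% and 19.8%. It was the 1 member called lower in RARα-TG, where 3.37% of 6197 genes were called higher and 3.52% lower. In RARα-KO Id3 was also called lower, from 2 UMIs against 18 (-2.84, -5.99 to -0.78), but it passed the filter only through WT, with 12 of the 18 UMIs in 1 WT cell. For RARα-KO 5.14% of 6415 genes were called higher and 2.49% lower. Nearly all other members of RARα-KO stood slightly below WT, with ratios from -0.79 (S1pr1) to -0.30 (Klf3), and Il7r stood at 0.07. Their median was -0.53, beside 0.13 for all genes tested.

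**Figure D3:**
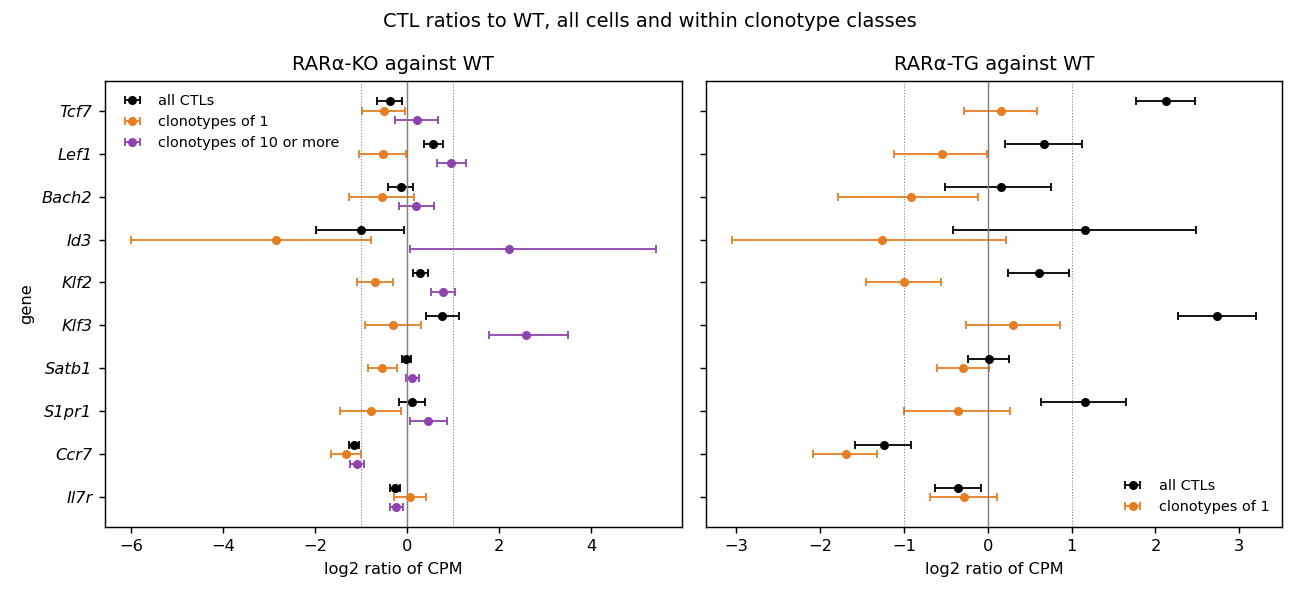
Log2 ratio of CPM to WT for each gene in CTLs of RARα-KO (left) and RARα-TG (right), over all CTLs and within clonotype classes, with exact 95% counting intervals; dotted lines mark 2-fold. Tcf7 of RARα-TG moves from 2.13 over all CTLs to 0.15 in clonotypes of 1, and Klf3 of RARα-KO stands at 2.58 in clonotypes of 10 or more.

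In clonotypes of 10 or more cells, Klf3 was the 1 member called higher in RARα-KO CTLs than in WT and Ccr7 the 1 called lower. Klf3 stood at 4.36 CPM in WT (14 UMIs) and 26.1 CPM in RARα-KO (118 UMIs), a ratio of 2.58 (1.78 to 3.50), and it passed the filter only through RARα-KO. Over all genes 1.54% of 6616 were called higher and 1.48% lower. Lef1 stood at 37.0 and 72.1 CPM (0.96, 0.65 to 1.28) and Klf2 at 56.6 and 97.4 CPM (0.78, 0.53 to 1.04). Tcf7, at 19.9 and 23.0 CPM, was not detectably different (0.21, -0.25 to 0.68). Ccr7 was again lower, at 258 CPM in WT and 121 CPM in RARα-KO (-1.09, -1.25 to -0.93). Over the alternatives run, the Klf3 ratio lay between 2.07 and 2.73, and that of Ccr7 rose to -0.73 with each clonotype given equal weight and to -0.93 without the Gzmf cluster. Klf2 was at -0.047 when the TCR alone defined T cells, and the median of the members went from 0.33 to 0.02 without the Gzmf cluster, where S1pr1 went from 0.46 to -0.18.

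Single clonotypes show how evenly these levels were spread. They were summed over all T cells of the clonotype, and clonotypes of 1 tumor are not replicates of a genotype. Klf3 had a UMI in 10 of 19 WT and 21 of 24 RARα-KO CTL clonotypes, with medians of 3.65 and 26.1 CPM and highest values of 26.0 and 113 CPM. Lef1 ranged from 9.54 to 94.7 CPM in WT (median 37.6) and from 19.9 to 133 CPM in RARα-KO (median 69.8). Klf2 ranged from 6.83 to 123 CPM (median 51.9) and from 3.61 to 256 CPM (median 104). Tcf7 had no UMI in 3 WT and 5 RARα-KO clonotypes, and its medians were 22.4 and 23.2 CPM. Ccr7 ranged from 6.27 to 649.9 CPM in WT (median 277) and from 0 to 602 CPM in RARα-KO (median 87.8). Values of the genotypes overlapped for all 5 genes.

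**Figure D4:**
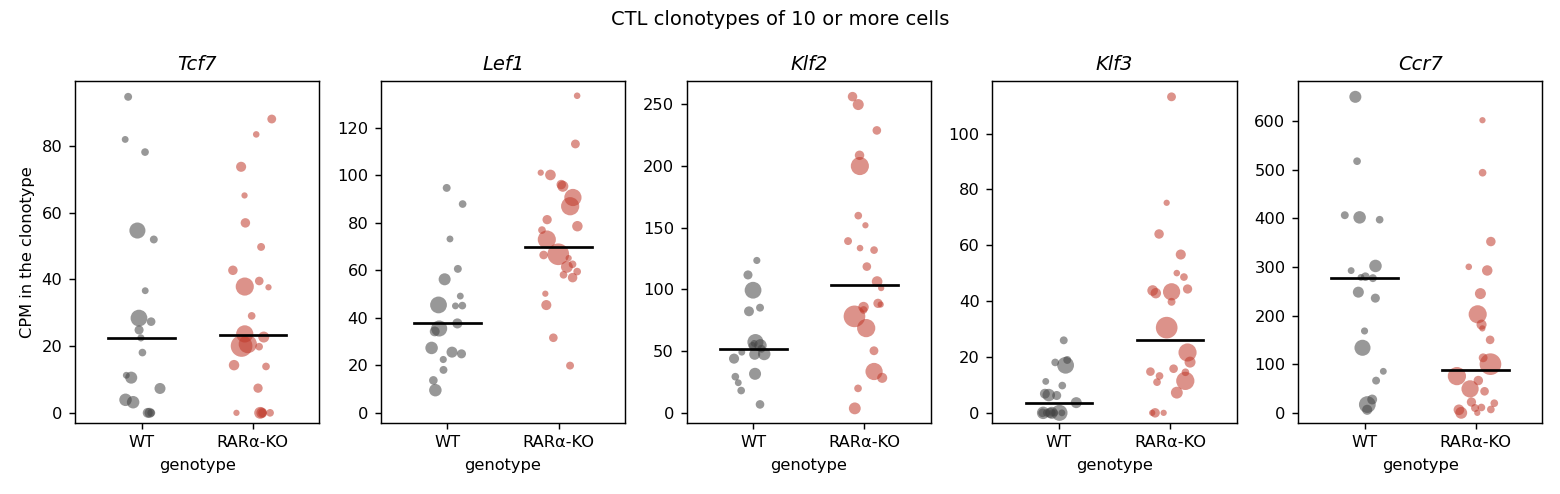
CPM of 5 genes in each CTL clonotype of 10 or more cells, 19 of WT and 24 of RARα-KO, with point area proportional to the number of cells and a bar at the median. Klf3 is at 0 in 9 WT and 3 RARα-KO clonotypes, and the genotypes overlap in every panel.

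The summed level of all 10 members reached 1638 CPM over WT CTL clonotypes (median 945) and ranged from 322 to 1628 CPM over those of RARα-KO (median 964). The highest clonotype of each genotype, the lowest of RARα-KO and a WT clonotype with a like beta chain are shown by the CDR3 of their TCR beta chain, the stretch that tells clonotypes apart, as read in the deposited contigs, 5′ to 3′.
WT clonotype47 (TRBV13-1, 12 cells, 1638 CPM): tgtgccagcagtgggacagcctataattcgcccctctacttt
RARα-KO clonotype49 (TRBV16, 10 cells, 1628 CPM): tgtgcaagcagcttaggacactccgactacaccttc
RARα-KO clonotype9 (TRBV16, 36 cells, 322 CPM): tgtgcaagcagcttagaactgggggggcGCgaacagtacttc
WT clonotype8 (TRBV16, 40 cells, 1120 CPM): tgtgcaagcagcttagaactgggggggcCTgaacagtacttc

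Capitals mark the bases that differ between the last pair, which is shown because nearly the same beta chain occurred in both genotypes. RARα-KO clonotype9 and WT clonotype8 differed at 2 of 42 bases and had 322 and 1120 CPM of the members. Of this, Ccr7 gave 103 UMIs in WT clonotype8 and 0 UMIs in RARα-KO clonotype9. WT clonotype25 had the same beta CDR3 as WT clonotype8 and 912 CPM. Among clonotypes of 10 or more, 3 pairs within a genotype shared a beta CDR3 exactly, so the deposited numbers may count some clones more than once.

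In CD4 T cells Ccr7 was the 1 member called in RARα-KO, and none was called in RARα-TG. The clusters differed: that led by Foxp3 held 59.0% (WT), 34.1% (RARα-KO) and 18.7% (RARα-TG) of them, that led by Tnfsf11 22.1%, 45.5% and 14.5%, and that led by Laptm4b 3.69%, 0.813% and 48.1%. WT had 497 CPM of Ccr7 (455 to 542), RARα-KO 182 CPM (160.5 to 207) and RARα-TG 446 CPM (409.5 to 486), which leaves RARα-KO the lowest. Its RARα-KO ratio was -1.45 (-1.67 to -1.22), where 1.45% of 6201 genes were called higher and 2.53% lower, and it lost its call, at -0.87, with each clonotype given equal weight. Shares of cells with Ccr7 were 30.9%, 17.5% and 15.3%. RARα-TG thus had the WT level from fewer cells, and 1 of its cells held 16.7% of the UMIs. Il7r stood at 426, 239 and 489 CPM, with a RARα-KO ratio of -0.83 (-1.04 to -0.62). Klf2 stood at 161, 95.3 and 148 CPM, with a RARα-KO ratio of -0.76 (-1.10 to -0.42). Without cells that had a Foxp3 UMI, the Ccr7 ratio for RARα-KO was -1.62. No member was called for RARα-TG, where 2.27% of 6038 genes were called higher and 2.19% lower. Tcf7 stood at 40.4, 54.2 and 52.9 CPM, and Klf3 at 45.2, 41.0 and 46.3 CPM, with all 4 ratio intervals holding 0.

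Several regulators were also lower in expanded clonotypes of CD4 T cells. Foxp3 was found in 58.2% of CD4 T cells in clonotypes of 1 and 50.6% in clonotypes of 2 or more for WT, 40.4% and 30.1% for RARα-KO, and 50.7% and 68.3% for RARα-TG. Tcf7 was called lower in clonotypes of 2 or more than in clonotypes of 1 in all 3 genotypes, at 20.7 against 62.5 CPM in WT (-1.59, -2.84 to -0.50), 31.0 against 93.1 CPM in RARα-KO (-1.59, -2.34 to -0.85) and 18.1 against 70.5 CPM in RARα-TG (-1.96, -3.18 to -0.91). After thinning to 1000 UMIs the RARα-TG ratio of Tcf7 was 0.088, so its direction did not hold. S1pr1 had ratios of -0.83, -2.88 and -1.93, and the last pair was called. In all, the members called lower were 1 for WT, 5 for RARα-KO and 4 for RARα-TG, where 2.74%, 3.72% and 2.54% of the genes tested were called lower and 3.12%, 3.08% and 2.59% higher. The 5 in RARα-KO were Tcf7, Bach2, Klf3, S1pr1 and Ccr7, and the 4 in RARα-TG were Tcf7, Klf2, Klf3 and S1pr1. Bach2 in RARα-KO and Tcf7 and Klf3 in RARα-TG passed the filter only through clonotypes of 1. In RARα-TG Klf2 went from -1.13 to 1.05 when the TCR alone defined T cells, and 1 cell held 23 of the 44 Klf2 UMIs of the expanded cells. With the TCR alone, which admits cells outside the T cell clusters, the groups went from 101 to 103 and from 138 to 139 cells. Lef1 did not follow, with ratios of 0.03, 0.74 and -0.41, nor did Il7r in WT and RARα-TG (-0.11 and -0.01). In RARα-TG the 34 CD4 T cells in clonotypes of 10 or more had no UMI of Tcf7, Klf3 or S1pr1. At their 158330 UMIs the floor of 3 UMIs equals 18.9 CPM, and a count of 0 does not exclude a level above it. The Ccr7 level of these 34 cells, 379 CPM, came from 1 cell with 60 UMIs. Removing the largest clonotype raised the count in WT to 3 members, removing cells with Foxp3 raised it to 4, and thinning to 1000 UMIs lowered the counts to 0, 2 and 2.

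CTLs and CD4 T cells were also compared within each genotype. In WT, Klf3 (-1.42, -1.94 to -0.88) and S1pr1 (-1.03, -1.44 to -0.59) were called lower in CTLs, where 3.97% of 6603 genes were called higher and 8.31% lower. Neither held with each clonotype given equal weight, which gave 0.55 for Klf3 and 0.15 for S1pr1. In RARα-TG, Tcf7 (1.69, 1.23 to 2.17) and Klf3 (1.29, 0.75 to 1.82) were called higher in CTLs and Ccr7 (-1.75) and Il7r (-1.31) lower, where 6.05% of 6311 genes were called higher and 11.8% lower. In RARα-KO no member was called, where 3.03% of 6635 genes were called higher and 5.34% lower, and Tcf7 stood at -0.85 (-1.23 to -0.45). Bach2 was higher in CTLs of all genotypes, with ratios of 0.75, 0.62 and 0.95, and it was level (-0.13, -0.02 and -0.09) against CD4 T cells without Foxp3.

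The members were not carried by the same cells throughout. With each cell thinned to 1000 UMIs, 3 or more of the 10 members were found in 24.6% of WT CTLs in clonotypes of 1 (17.2% to 33.2%), against 3.21% of those in clonotypes of 10 or more (1.81% to 5.24%). In RARα-KO the shares were 17.0% (10.1% to 26.2%) and 4.83% (3.35% to 6.72%), and in RARα-TG clonotypes of 1 the share was 13.8% (7.07% to 23.3%). Without thinning the shares were 72.1% and 38.3% (WT), 61.7% and 46.1% (RARα-KO) and 63.0% (RARα-TG). Among thinned WT CTLs with a Tcf7 UMI, Lef1 was found in 14.0% (6 of 43), against 3.38% of CTLs without it. Klf2 was found in 20.9% (10.0% to 36.0%) against 8.12% (6.33% to 10.2%), and these intervals overlap. Bach2 went the other way, at 2.33% against 5.38%. In RARα-KO the Lef1 shares were 6.67% and 6.77%. Klf3 and S1pr1 were each found there in 9 of 60 CTLs with a Tcf7 UMI, against 3.74% and 4.10% of CTLs without it. In RARα-TG only 14 thinned CTLs had a Tcf7 UMI. Lef1 was found in 28.6% of these, against 4.12% of CTLs without it, and Klf2 in 0% against 16.5%.

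Across 15 groups of genotype, lineage and clonotype class with 20 or more cells, the members followed the mean of the others to different degrees, as a description over groups that share a library. Pearson's r to that mean was 0.94 for Klf2, 0.89 for S1pr1, 0.84 for Klf3 and Satb1 and 0.82 for Tcf7. It was lower for Bach2 (0.69), Id3 (0.60), Lef1 (0.42), Ccr7 (0.33) and Il7r (0.09). The non-members most like the mean, of 8034 genes considered, were Ppp2r5a (0.90), Mfsd6 (0.90), Thada (0.89), Acot2 (0.88), Camsap2 (0.87), Klhdc2 (0.86), Pde2a, Fam241a, Cmah and Vps37b (the last 4 at 0.85).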

How the data were processed

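The authors aligned the reads to mm10 and deposited raw UMI counts of genes and hashtags for every barcode, and TCR contigs. The submitters' processing notes name Cell Ranger 6.1.0, and the matrix header names version 4. Cells were called anew from the deposited counts by the steps of Cell Ranger (minimum of 500 UMIs), giving 5585. Seurat 5.3.0 (HTODemux, quantile 0.99) gave 4925 cells 1 hashtag, called 426 doublets and left 234 cells unassigned. Doublets were removed before clustering, while unassigned cells were clustered but entered no genotype. T cells were clusters (scanpy 1.11.5, Leiden resolution 1) with over 50% of barcodes in a clonotype. CTLs had Cd8a without Cd4, and CD4 T cells had Cd4 without Cd8a or Cd8b1. UMIs were summed per group and scaled by all UMIs of its genes (CPM). Sums have exact Poisson intervals, shares Clopper-Pearson intervals and log2 ratios exact conditional binomial intervals, at 95% and for counting error only. A count of 0 was set to 3 UMIs in a ratio, and likeness used log2(CPM + 10). Positions are from RefSeq's table of GRCm38.p6, matched by symbol for all 10 genes. Scripts were tested on simulated data. Nothing was tested, since each genotype is 1 sample. The members, the gene lists, the gates and the alternatives were chosen with earlier results of these data known. All 10 members are named, and from the other lists the 3 genes furthest from equality. Of these, 1 gene is not reported here, nor is 1 clonotype.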

Additional observations from a re-analysis of the deposited data

Results flagged for a closer look

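Klf2 was flagged because its RARα-KO ratio to WT went opposite ways in the 2 kinds of T cells, with log2 ratios of 0.291 (CTLs) and -0.761 (CD4 T cells). Both counting intervals left out 0, and the difference between the ratios was not tested. In CTLs the sign of Klf2 changed under 3 of the alternatives given below. Il7r was flagged in the same way for RARα-TG, with -0.351 in CTLs and 0.201 in CD4 T cells, and this difference was not tested either.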

How the results depend on the processing

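Each log2 ratio was recomputed under up to 12 alternatives, and no replicate could be left out, since each genotype has 1 sample. No paired analysis was possible because no sample has a replicate. Each reported median was given a band, from the median of the members' lower bounds to the median of their upper bounds. This band is not an interval for the median itself, and for RARα-TG CTLs against WT it ran from -0.02 to 1.04. The medians of the members stayed within the band in 152 cases and moved out of it in 9. In 2 cases they changed a sign that the band had fixed. With each clonotype given equal weight, the median of the members was -0.38 for RARα-KO against WT in CTLs, -0.16 for RARα-TG and 0.36 for CTLs against CD4 T cells in WT. With genotypes assigned by a 90% share of hashtag UMIs, which left 17 WT CTLs, 16 WT CD4 T cells and 8 WT CTLs in clonotypes of 1, the medians of the members were 0.30 (CTLs) and 0.74 (CD4 T cells) for RARα-KO, -0.18 for CTLs against CD4 T cells in WT, and 1.02 (RARα-KO) and 0.58 (RARα-TG) in clonotypes of 1. Without the Gzmf cluster they were -0.35 for RARα-KO CTLs and -0.16 for CTLs against CD4 T cells in WT, and without Foxp3 cells -2.09 for expanded RARα-KO CD4 T cells. The cause was not tested.

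Of the ratios of single members, 1367 stayed, 184 moved and 40 changed a sign that the interval had fixed. With T cells defined by their TCR, cells outside the T cell clusters were included. Klf2 was then at -0.25 (RARα-KO CTLs), -0.22 (RARα-TG CTLs), 1.05 (expanded RARα-TG CD4 T cells) and -0.047 (RARα-KO, clonotypes of 10 or more). After thinning to 1000 UMIs, RARα-KO CTLs had Tcf7 at 0.0087, RARα-TG CTLs S1pr1 at -0.18 and, in clonotypes of 1, Lef1 at 0.078. In clonotypes of 10 or more, RARα-KO had Id3 at -0.13 against WT and Il7r at 0.28 against clonotypes of 1. Expanded CD4 T cells had Lef1 at -0.38 (RARα-KO) and Tcf7 at 0.088 (RARα-TG). With equal clonotype weights, RARα-KO CTLs had Lef1 at -0.18, Klf2 at -0.51, Klf3 at -0.28 and Il7r at 0.10. RARα-TG CTLs had Klf2 at -0.69, S1pr1 at -0.27 and Il7r at 0.035, and CTLs against CD4 T cells had Klf2 at 0.18, Klf3 at 0.55 and S1pr1 at 0.15 in WT and Tcf7 at 0.10 in RARα-KO. By hashtag share, Tcf7 was at 1.19 (RARα-KO CTLs), Klf2 at 1.504 (RARα-KO CD4 T cells) and 0.99 (CTLs against CD4 T cells in WT) and Il7r at -0.61 (RARα-TG CD4 T cells). In clonotypes of 1 it gave Tcf7 3.23, Lef1 1.02, Klf2 1.19, S1pr1 2.26 and Satb1 0.76 for RARα-KO and Lef1 0.58 for RARα-TG. Without the Gzmf cluster, RARα-KO had Klf2 at -0.13 and, in clonotypes of 10 or more, S1pr1 at -0.18. Without Foxp3 cells, CTLs against CD4 T cells had Bach2 at -0.13 (WT), -0.019 (RARα-KO) and -0.091 (RARα-TG) and Il7r at 0.15 (RARα-KO), and expanded RARα-TG CD4 T cells had Ccr7 at 0.36. Without the largest clonotype, Il7r was at 0.039 in RARα-KO clonotypes of 10 or more. The cause was not tested.

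Without the filter on low levels, over all genes, 256 were called higher and 373 lower for RARα-KO CTLs, against 85 and 89 with it, and 531 higher for RARα-TG CTLs, against 306. In CD4 T cells the counts were 156 and 293 (RARα-KO), against 90 and 157, and 262 and 236 (RARα-TG), against 137 and 132. For CTLs against CD4 T cells they were 395 and 1104 in WT, against 262 and 549, and 361 and 829 in RARα-KO, against 201 and 354. In clonotypes of 10 or more, RARα-KO had 278 and 311 against WT, where the filter left 102 and 98, and against clonotypes of 1 the lower counts were 407 (WT) and 323 (RARα-KO), where it left 211 and 180. With 113 RARα-TG CTLs, small differences of weakly expressed members could not be detected.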

Other observations

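Several of the regulators were also found outside T cells. Ccr7 reached 4278 CPM in the dendritic cell cluster led by Fscn1, with a UMI in 69.6% of its 56 cells, far above its 313 CPM in WT CTLs. Il7r stood at 391 CPM in the myeloid cluster led by Lyz2 and Arg1, and 79.6% of 49 cells in the dendritic cluster led by Ly6d and Siglech had a UMI of it. In MC38 or stromal cells Klf2 had a UMI in 98.8%, Klf3 in 92.7%, Id3 in 65.6% and Tcf7 in 41.0% of 422 cells, at a median depth of 29282 UMIs, where Tcf7 stood at 20.5 CPM. Lef1, S1pr1 and Ccr7 were found in 1.18%, 2.37% and 1.42% of these cells.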
